A study of Metroxylon sagu with 6 samples.

Results

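Leaf starch breakdown in sago palm (*Metroxylon sagu*) was described here through 112 Unigenes, the transcript sequences assembled from the leaf reads. They were taken from the 99933 Unigenes listed over the 6 libraries by 2 conditions. The closest protein in the Nr database came from oil palm (*Elaeis guineensis*, 70 Unigenes) or date palm (*Phoenix dactylifera*, 42 Unigenes), and the Swiss-Prot name was that of an enzyme or transporter of starch breakdown. The names searched were alpha- and beta-amylases, glucan and phosphoglucan water dikinases, phosphoglucan phosphatases, glucan phosphorylases, disproportionating enzymes (4-alpha-glucanotransferases), pullulanase, the maltose exporter Maltose excess protein 1 and the plastidic glucose transporters. No measured level entered this rule, but the set was chosen with earlier results of these data known.

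The libraries were made from leaves of palms selected by phenotype on a peat soil plantation, with 1 library for each palm. The Trunking palms (ST1, ST4 and ST5) had formed a trunk and serve as the control, and the Non-trunking palms (SN7, SN8 and SN9) had not. All 6 were field-grown *M. sagu* with no applied treatment named. The sources used here do not give palm age, leaf position or hour of sampling. The palms of each phenotype stood together at a site of their own, so phenotype and site cannot be told apart.

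Leaves store starch in the chloroplast by day and break it down at night. In *Arabidopsis*, glucan water dikinase (GWD) and phosphoglucan water dikinase (PWD) first add phosphate to the granule surface, and phosphoglucan phosphatases take it off again while the glucans are cut. Beta-amylases release maltose, debranching enzymes open the branch points, and alpha-amylase and disproportionating enzyme 1 (DPE1) act on the remaining chains. Maltose leaves the chloroplast through MEX1 and glucose through the plastidic glucose transporter, and in the cytosol disproportionating enzyme 2 (DPE2) and a glucan phosphorylase process the maltose further.

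The 112 Unigenes carried 30 Swiss-Prot protein names and fell into 56 clusters or single Unigenes. Of these Unigenes, 77 lay in 21 clusters, which the TGICL program forms from overlapping contigs, and 35 stood alone. Contigs of one cluster can be near-identical, so reads may have been divided between them, and a value for a single contig is uncertain to that extent. Lengths ran from 208 to 5028 nt. After the filter on low counts 89 of the 112 could be tested, with a median length of 1930 nt, while the 23 that could not be tested had a median length of 326 nt. None of those 23 had a mean level above 1.40 FPKM (the RSEM level scaled by transcript length and library total), the value of Unigene4501_All, a beta-amylase 3 fragment.

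Each library held between 17927176 and 18492907 expected counts, and the starch breakdown Unigenes took from 0.106% of them in SN7 to 0.163% in ST4. Counts were put on the CPM scale (counts scaled to library size) with TMM factors between 0.824 (SN7) and 1.13 (SN9). Within a group the highest palm stood a median of 1.72 times above the lowest in the Trunking palms and 1.84 times in the Non-trunking palms, over the tested starch breakdown Unigenes. The chloroplast markers of leaf mesophyll were present in every library, at 14758 to 27687 summed FPKM in the Trunking and 20978 to 34143 in the Non-trunking palms. No Unigene with an oil palm or date palm match carried the name of a root marker searched, so these markers could not show whether root RNA was present. In bulk leaf RNA, fewer cells of a type and less RNA per cell cannot be told apart.

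The levels spanned a wide range on the FPKM scale, which corrects for length and so allows proteins to be compared. The highest summed level was that of the chloroplastic GWD (9 Unigenes). It stood at 116 FPKM in ST1, 160.5 in ST4 and 138 in ST5, against 80.1 in SN7, 79.9 in SN8 and 117 in SN9. Both exporters of breakdown products followed, with a mean over the 6 libraries of 63.1 FPKM for plastidic glucose transporter 4 and 49.6 FPKM for the MEX1-like maltose exporter. Unigenes named beta-amylase 2 summed to a mean of 45.4 FPKM, PWD to 34.6 FPKM and the phosphatase DSP4 to 33.4 FPKM. The beta-amylase 2 sum joins 2 clusters. Its highest contig, CL2509.Contig2_All (mean 17.4 FPKM), is named beta-amylase 1 by Nr. The disproportionating enzymes were far lower, at a mean of 5.33 FPKM for DPE2 and 2.89 FPKM for DPE1. Many neighbours in this order overlapped from palm to palm, as MEX1-like (41.4 to 67.7 FPKM) did with glucose transporter 4 (45.0 to 78.4 FPKM).

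**Figure D1:**
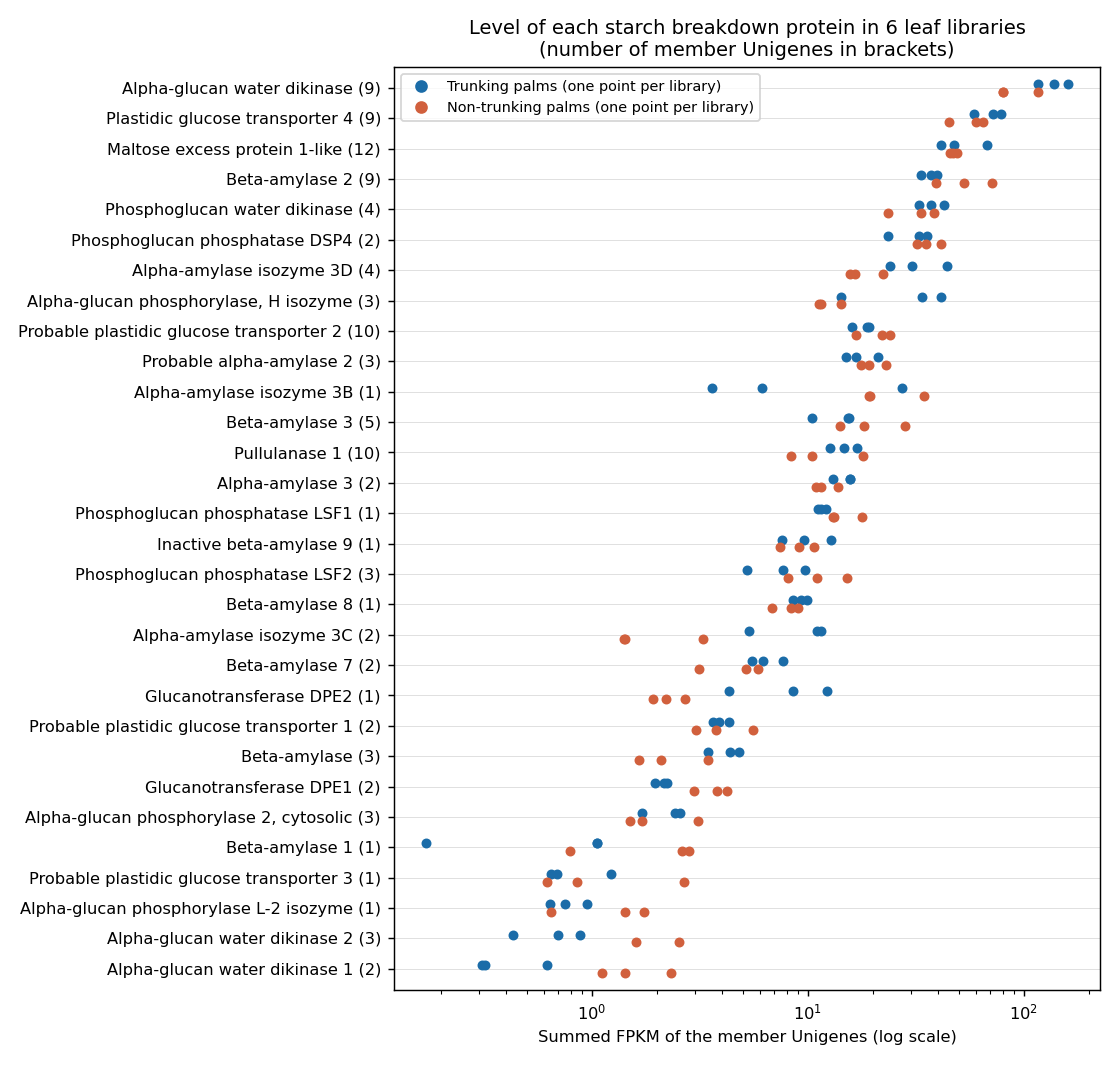
Summed FPKM (log axis) of the starch breakdown Unigenes under each of the 30 Swiss-Prot names, with 1 point for each library, blue for the 3 Trunking and orange for the 3 Non-trunking palms. GWD stands highest in the plot, a value of 0 (1 library of alpha-glucan water dikinase 2) is not drawn, and for most names the colours are mixed.

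The comparison of the phenotypes asked whether these transcripts differed between Trunking and Non-trunking leaves. Every log2 fold change (log2FC) with its standard error (SE) is Non-trunking minus Trunking, from the two-sided edgeR quasi-likelihood test on all 45928 Unigenes that passed the filter, with Benjamini-Hochberg adjustment over all of them. Adjusted p-values of summed clusters are over the 25629 clusters and single Unigenes tested, and those of DESeq2 over its own set. The highest Unigene or contig of a protein means the one with the highest mean FPKM. None of the 89 tested starch breakdown Unigenes (0) passed an adjusted p of 0.05 in this test, nor did any Unigene at all (0%). The smallest adjusted p of a starch breakdown Unigene was 0.209 with edgeR quasi-likelihood. Unadjusted, 10 of the 89 (11.2%) had a p under 0.05, against 9.85% of all Unigenes tested. Of the 10, 4 were higher in the Non-trunking palms (4.49%, against 5.43% of all) and 6 were lower (6.74%, against 4.43% of all). The count of 4 became 2 without ST1 and 7 without ST4. The groups of palms did not overlap in CPM for 14 of the 89 (15.7%), which compares with 17.3% of all tested Unigenes. In 6 of the 14 the Non-trunking palms were higher (6.74%, against 8.71% of all) and in 8 they were lower (8.99%, against 8.55% of all). Each of these shares lay near the share of all Unigenes, and the median log2FC was -0.073 beside 0.019 over all Unigenes. The sign of this small median was not firm, since it was positive without ST4, ST5, SN8 or SN9, up to 0.068.

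The number of calls depended on the tool. DESeq2 gave an adjusted p under 0.05 to 4 of the same 89 (4.49%), beside 2.22% of the 52929 Unigenes to which it assigned an adjusted p. They were DPE2, 1 GWD contig, 1 phosphorylase contig and 1 alpha-amylase contig, and each was lower in the Non-trunking palms. The share of lower calls among all DESeq2 calls is not given here. It also called the MEX1-like contig CL4023.Contig10_All, which edgeR had filtered out and which was listed only in SN7 at 1.20 CPM and in SN8 at 3.57 CPM. This contig was named after its values were seen. edgeR's likelihood ratio test called DPE2 alone among the 89, and 1.68% of all tested Unigenes. On simulated counts at the estimated dispersions, DESeq2 recovered 107 of 200 changed Unigenes with 181 false calls. The likelihood ratio test recovered 94 with 113 false calls, so calls of either tool are uncertain. The quasi-likelihood test recovered 0 of the 200 on the same counts. Its lack of adjusted calls therefore does not show that levels were alike in the 2 phenotypes.

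**Figure D2:**
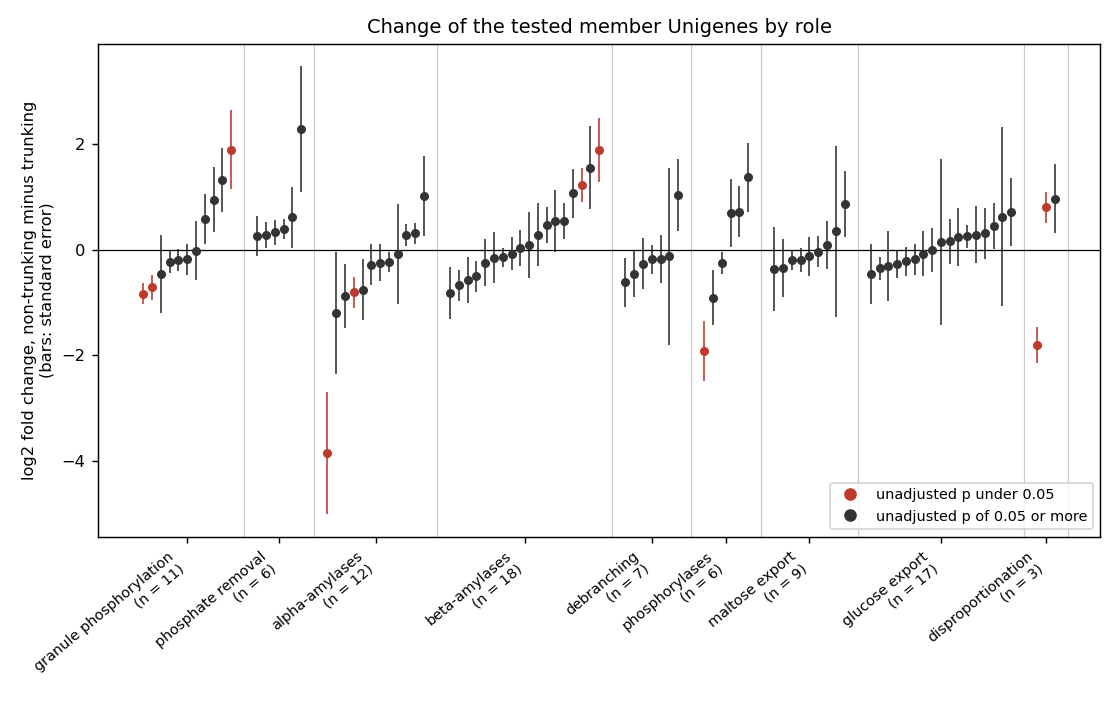
Log2FC (Non-trunking minus Trunking, edgeR) of the 89 tested starch breakdown Unigenes, sorted within each role, with bars for the SE and red for an unadjusted p under 0.05. The points run from -3.86 for an alpha-amylase contig to 2.29 for a phosphatase contig, and most roles hold values on both sides of 0.

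Granule phosphorylation was represented by 18 Unigenes, of which 11 were tested. Of the 7 tested Unigenes named as chloroplastic GWD, 4 had a negative and 3 a positive log2FC, with a median of -0.015. This enzyme, which opens the granule surface for attack, came from the cluster CL2398 for the most part. Its contig CL2398.Contig1_All (2916 nt) stood at 136, 154 and 147 CPM in ST1, ST4 and ST5, and at 76.1, 85.7 and 83.4 CPM in SN7, SN8 and SN9. The 3 Non-trunking palms all lay below the 3 Trunking palms, with means of 81.7 ± 5.00 and 146 ± 9.30 CPM (SD, n = 3 palms each). Its log2FC was -0.84 (SE 0.20, unadjusted p 0.00453, adjusted p 0.285, edgeR quasi-likelihood). The unadjusted p stayed under 0.05 whichever library was left out, and DESeq2 gave this contig an adjusted p of 0.00544. With edgeR's likelihood ratio test its adjusted p was 0.230.

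The longest GWD contig, CL2398.Contig3_All (4745 nt), held 249.9, 288 and 296 CPM in the Trunking palms and 169, 149 and 191 CPM in SN7, SN8 and SN9. Again the groups did not overlap. Its log2FC was -0.71 (SE 0.23, unadjusted p 0.0198, adjusted p 0.415, edgeR quasi-likelihood). Without ST5 or without SN8 the unadjusted p was no longer under 0.05. When the counts of the 4 contigs of CL2398 were summed, the cluster stood at 414, 491 and 492 CPM in the Trunking palms and at 283, 264 and 319 CPM in the Non-trunking palms, a log2FC of -0.69 (SE 0.21, adjusted p 0.327, edgeR quasi-likelihood on summed counts). The largest contig kept about the same share of the cluster, 59.7% in Trunking and 58.7% in Non-trunking palms. CL2398.Contig2_All, named after its values were seen, overlapped between groups in CPM with a log2FC of -0.18 (SE 0.29). Its mean share was 8.83% in Trunking and 12.7% in Non-trunking palms, without overlap (two-sided exact permutation test, p = 0.1). On the FPKM scale the summed GWD levels of the groups overlapped, since SN9 (117 FPKM) reached ST1 (116 FPKM).

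A short fragment matched to GWD1, Unigene29356_All (767 nt), had the opposite direction at a very low level. It held 8, 4 and 1 counts in ST1, ST4 and ST5, and 18, 14 and 15 counts in SN7, SN8 and SN9, with no overlap between the groups. The log2FC of 1.90 (SE 0.75, adjusted p 0.474, edgeR quasi-likelihood) rests on these few fragments, and its unadjusted p of 0.0393 was under 0.05 in only 1 of the 6 fits that left out a library, the one without ST1. Nr names this Unigene as glucan water dikinase 2. PWD, which phosphorylates glucans that GWD has already marked, had its highest contig by FPKM in CL4870.Contig1_All, which stood at 44.8, 46.7 and 58.6 CPM in the Trunking and 37.9, 48.3 and 45.4 CPM in the Non-trunking palms. The groups overlapped, with a log2FC of -0.19 (SE 0.21).

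Phosphate removal was covered by 6 Unigenes in 3 clusters, all tested. Every one had a positive log2FC, from 0.27 to 2.29 with a median of 0.36, and none had an unadjusted p under 0.05. LSF1 (Unigene19499_All), a phosphatase-like protein needed for normal starch turnover in *Arabidopsis*, stood at 28.7, 26.0 and 30.6 CPM in the Trunking palms and 39.5, 32.9 and 39.5 CPM in the Non-trunking palms. The groups did not overlap, and the log2FC was 0.39 (SE 0.18, unadjusted p 0.0718). DSP4, named for the dual-specificity phosphatase that is SEX4 in *Arabidopsis*, was highest by FPKM in CL6095.Contig2_All with a log2FC of 0.33 (SE 0.24), and here the groups overlapped. LSF2, which removes phosphate from another carbon of the glucose unit, had the low contig CL5571.Contig1_All at 0, 2.24 and 0.33 CPM in the Trunking and 4.99, 3.79 and 3.95 CPM in the Non-trunking palms. This contig, named after its values were seen, did not overlap between groups either, and its log2FC of 2.29 carries a SE of 1.19. The more abundant LSF2 contig CL5571.Contig2_All overlapped between groups, with a log2FC of 0.27 that came to -0.0068 without SN7. With counts summed per cluster, LSF2 (CL5571) had a log2FC of 0.68 (SE 0.30) and DSP4 (CL6095) 0.30 (SE 0.22). Both sums overlapped between groups in CPM.

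The alpha-amylases, which cut inside the glucan chain, were 12 Unigenes in 7 clusters or single Unigenes, and all 12 were tested. Of the 12, 9 had a negative and 3 a positive log2FC, with a median of -0.26. At an unadjusted p under 0.05, 2 of the 12 were lower, beside 4.43% of all tested Unigenes. Both are contigs of 1 cluster, CL2078, whose contigs Swiss-Prot matches to rice isozymes 3B, 3C and 3D, a secreted family known from germinating rice grain. Nr names all contigs of the cluster isozyme 3D or 3D-like, so which isozyme each one is remains uncertain. CL2078.Contig3_All stood at 19.1, 12.2 and 9.35 CPM in ST1, ST4 and ST5, was not listed in SN7, and reached 0.279 CPM in SN8 and 2.42 CPM in SN9. Every Non-trunking palm lay below every Trunking palm. The log2FC was -3.86 (SE 1.16, unadjusted p 0.0133, adjusted p 0.375, edgeR quasi-likelihood), and it ranged from -6.45 to -3.30 when libraries were left out in turn.

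CL2078.Contig4_All, matched to isozyme 3D, held 31.4, 53.8 and 32.4 CPM in the Trunking palms against 17.9, 26.7 and 22.5 CPM in the Non-trunking palms. The groups did not overlap, with a log2FC of -0.81 (SE 0.29, unadjusted p 0.0273, adjusted p 0.442, edgeR quasi-likelihood). Without ST4, SN7 or SN9 the unadjusted p passed 0.05. CL2078.Contig2_All, matched to isozyme 3B, went the other way with a log2FC of 1.02 (SE 0.76), since ST1 and ST4 were at 7.97 and 12.0 CPM while ST5 was at 59.5 CPM, within the Non-trunking range of 36.9 to 73.8 CPM. Summed over its contigs the cluster overlapped between groups. Its level was 67.9, 88.8 and 109 CPM in the Trunking palms and 73.2, 110.4 and 71.3 CPM in the Non-trunking palms, a log2FC of -0.063 (SE 0.26).

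The share of the cluster's counts held by each contig was set beside this, for contigs already seen to differ in level. CL2078.Contig2_All took 11.7%, 13.5% and 54.7% of the counts of the cluster in ST1, ST4 and ST5, and 69.4%, 66.8% and 51.7% in SN7, SN8 and SN9. ST5 lay inside the Non-trunking range (two-sided exact permutation test, p = 0.2). CL2078.Contig3_All took 28.1%, 13.7% and 8.59% in the Trunking palms and 0%, 0.270% and 3.40% in the Non-trunking palms (two-sided exact permutation test, p = 0.1, the smallest value that 3 against 3 palms can give). Whether these contigs are alleles, copies or splice forms was not tested.

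**Figure D3:**
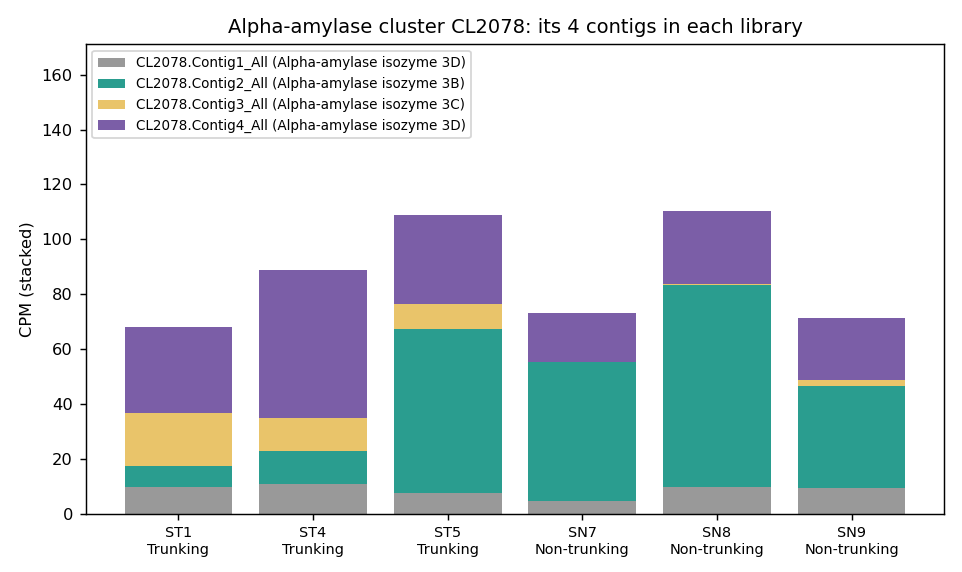
Stacked CPM of the 4 contigs of the alpha-amylase cluster CL2078 in each library, with the Trunking palms on the left and the Non-trunking palms on the right. The totals lie between 67.9 and 110.4 CPM in both groups, while the contig matched to isozyme 3B (green) is the largest part in ST5 and in all 3 Non-trunking palms.

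Outside CL2078, the chloroplastic alpha-amylase 3, the form located with the starch in *Arabidopsis* leaves, stood at 34.4, 40.5 and 43.2 CPM in the Trunking and 37.1, 31.6 and 31.5 CPM in the Non-trunking palms (Unigene10481_All). The groups overlapped, and the log2FC was -0.24 (SE 0.19). Probable alpha-amylase 2 was highest by FPKM in CL3911.Contig1_All, with a log2FC of 0.28 (SE 0.21) and overlapping groups. Another isozyme 3D match, Unigene9786_All, varied within both groups, from 1.12 to 36.7 CPM among Trunking palms and from 1.43 to 12.5 CPM among Non-trunking palms, and was named after its values were seen.

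Beta-amylases, which release maltose from chain ends, made up 22 Unigenes, with 18 tested. Their median log2FC was 0.062, and at an unadjusted p under 0.05, 2 were higher and 0 lower in Non-trunking leaves, beside 5.43% and 4.43% of all tested Unigenes. CL8711.Contig2_All stood at 11.7, 8.39 and 6.76 CPM in ST1, ST4 and ST5, and at 29.3, 17.4 and 16.2 CPM in SN7, SN8 and SN9. All Non-trunking palms lay above all Trunking palms, with means of 21.0 ± 7.23 and 8.94 ± 2.50 CPM (SD, n = 3 palms each). The log2FC was 1.23 (SE 0.33, unadjusted p 0.00754, adjusted p 0.328, edgeR quasi-likelihood), and the unadjusted p stayed under 0.05 without any one library. Swiss-Prot matched this contig to beta-amylase 3 and Nr to beta-amylase 1, so which form it is remains uncertain.

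The other contig, CL8711.Contig1_All, was matched to beta-amylase 1 and pointed the same way with a log2FC of 1.56 (SE 0.79). The summed cluster stood at 12.0, 10.4 and 9.02 CPM in Trunking palms and 36.4, 19.0 and 21.0 CPM in Non-trunking palms, a log2FC of 1.29 (SE 0.30, adjusted p 0.221, edgeR quasi-likelihood on summed counts). A second cluster, CL2509, carries the Swiss-Prot name beta-amylase 2 from rice, while Nr names it beta-amylase 1. Its contig CL2509.Contig1_All held 1.37, 3.71 and 1.87 CPM in the Trunking and 14.5, 3.68 and 7.70 CPM in the Non-trunking palms, so SN8 fell just inside the Trunking range. For it edgeR quasi-likelihood gave a log2FC of 1.89 (SE 0.61, unadjusted p 0.0176, adjusted p 0.406), and the unadjusted p passed 0.05 without ST1, ST5 or SN7.

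The more abundant CL2509.Contig2_All stood at 20.3, 13.5 and 17.7 CPM in the Trunking and 64.2, 23.2 and 20.6 CPM in the Non-trunking palms. The groups did not overlap, but SN9 was barely above ST1 and SN7 stood far above the rest (log2FC 1.07, SE 0.47, unadjusted p 0.0583). Over the 4 contigs of CL2509 the sums were 21.6, 17.6 and 19.8 CPM against 80.4, 29.4 and 29.2 CPM, a log2FC of 1.24 (SE 0.43, adjusted p 0.376, edgeR quasi-likelihood on summed counts). No other beta-amylase Unigene had an unadjusted p under 0.05. Beta-amylases 7 and 8, which carry a DNA-binding domain in *Arabidopsis*, had log2FCs of -0.50 (SE 0.29) and -0.15 (SE 0.18) in their highest contigs, CL895.Contig4_All and CL10169.Contig1_All. The catalytically inactive beta-amylase 9 (Unigene16496_All) had -0.073 (SE 0.31), and the highest Unigene named only beta-amylase (Unigene22573_All) had -0.58 (SE 0.44). In these 4 Unigenes the groups overlapped in CPM, and on the FPKM scale they did not overlap for CL895.Contig4_All. Nr names that contig beta-amylase 2, as Swiss-Prot names the other 5 contigs of its cluster, so which form it is remains uncertain.

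Debranching was represented by pullulanase, with 10 Unigenes, of which 7 were tested and none had an unadjusted p under 0.05. Their log2FCs ran from -0.62 to 1.05, and 6 of the 7 were negative. The highest contig, CL3750.Contig9_All, stood at 14.6, 14.2 and 17.7 CPM in the Trunking palms and 15.4, 9.15 and 16.4 CPM in the Non-trunking palms, with SN8 the lowest. The groups overlapped, and the log2FC of -0.18 (SE 0.27) came to 0.037 without SN8.

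The disproportionating enzymes, which move glucan segments from one chain to another, were 3 Unigenes, all tested, and held the smallest p of the starch breakdown Unigenes. DPE2 (Unigene22359_All, 3616 nt), the cytosolic form that uses exported maltose, stood at 16.0, 40.1 and 30.7 CPM in ST1, ST4 and ST5, and at 8.32, 7.87 and 8.64 CPM in SN7, SN8 and SN9. Every Non-trunking palm lay below every Trunking palm, with means of 8.28 ± 0.387 and 29.0 ± 12.2 CPM (SD, n = 3 palms each), and the Trunking palms were spread far more widely. The log2FC was -1.81 (SE 0.35, unadjusted p 0.00138, adjusted p 0.209, edgeR quasi-likelihood). It ranged from -2.09 to -1.50 when libraries were left out in turn, and the unadjusted p stayed under 0.05 each time. DPE2 is a single Unigene outside the clusters, so its reads were not divided among contigs of a cluster.

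DPE1, the form inside the plastid, had the opposite direction at a lower level. CL7917.Contig1_All held 3.41, 2.39 and 4.01 CPM in the Trunking palms and 5.46, 5.92 and 5.78 CPM in the Non-trunking palms, with no overlap. Its log2FC was 0.80 (SE 0.30, unadjusted p 0.0324, adjusted p 0.454, edgeR quasi-likelihood), and the unadjusted p stayed under 0.05 only without ST5 among the 6 fits that left out a library. The summed cluster, with both DPE1 contigs, had a log2FC of 0.83 (SE 0.23). On the FPKM scale DPE2 exceeded DPE1 in every Trunking palm (4.32 to 12.3 against 1.96 to 2.22 FPKM), and DPE1 exceeded DPE2 in every Non-trunking palm (2.97 to 4.23 against 1.91 to 2.71 FPKM).

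Glucan phosphorylases, which release glucose 1-phosphate, were 7 Unigenes with 6 tested. The H isozyme, the cytosolic form, was found mostly in the cluster CL5255. Its contig CL5255.Contig2_All (3244 nt) stood at 22.4, 95.3 and 75.3 CPM in ST1, ST4 and ST5, and at 20.6, 9.99 and 20.4 CPM in SN7, SN8 and SN9. The groups did not overlap in CPM, but ST1 lay just above SN7, and on the FPKM scale the groups overlapped. edgeR quasi-likelihood gave a log2FC of -1.92 (SE 0.57, unadjusted p 0.0122, adjusted p 0.368), which ranged from -2.32 to -1.53 when libraries were left out in turn. The other contig, CL5255.Contig1_All, overlapped between groups with a log2FC of -0.25 (SE 0.21), and was named after its values were seen. Summed over both contigs, the cluster held 52.5, 129.6 and 119 CPM in the Trunking palms and 52.3, 42.0 and 47.8 CPM in the Non-trunking palms, a log2FC of -1.08 (SE 0.34, adjusted p 0.343, edgeR quasi-likelihood on summed counts).

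The 5 contigs of CL2185 were also matched to phosphorylases by Swiss-Prot, while Nr calls the contigs described here glycogen phosphorylase 1-like. They were low, and CL2185.Contig4_All (log2FC -0.91, SE 0.53) and CL2185.Contig2_All (0.73, SE 0.48) pointed in opposite directions. The sum of the cluster had a log2FC of -0.083. A plastidic phosphorylase, the L isozyme of CL2061, was left out of the 112 because its closest Nr protein is from foxtail millet (*Setaria italica*). Its 2 contigs, named after their values were seen, had log2FCs of -2.20 (SE 0.51) and -1.44 (SE 0.30).

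**Figure D4:**
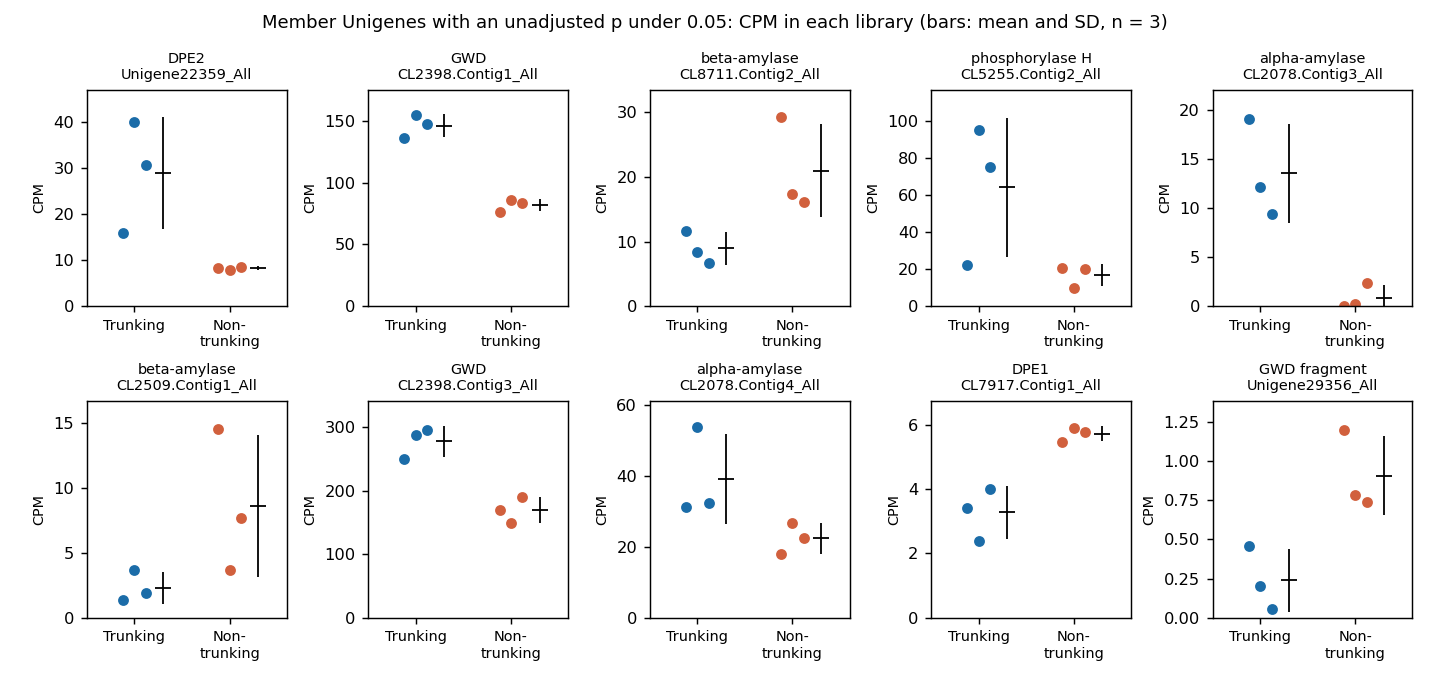
CPM in each library for the 10 starch breakdown Unigenes with an unadjusted p under 0.05, with blue points for Trunking and orange points for Non-trunking palms, and a bar for the mean and SD (n = 3 palms), cut off at 0. In 9 of the 10 panels the points of the groups do not overlap, the exception being CL2509.Contig1_All. The panels were picked by p on these same values, so this count is no separate result. Over all tested Unigenes the groups did not overlap in 17.3%.

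Export from the chloroplast showed no difference at an unadjusted p under 0.05 in any of the tested Unigenes. The maltose exporter was covered by 12 Unigenes named MEX1-like, of which 9 were tested, with a median log2FC of -0.12. Its highest Unigene, Unigene7143_All, stood at 19.6, 38.8 and 25.5 CPM in the Trunking palms and 32.2, 27.2 and 22.5 CPM in the Non-trunking palms. The groups overlapped throughout, and the log2FC was -0.036 (SE 0.30). Summed over the 12 Unigenes, the Non-trunking palms were close to one another at 47.2 ± 1.98 FPKM, and the Trunking palms stood at 52.1 ± 13.8 FPKM (SD, n = 3 palms each), with ST4 the highest at 67.7 FPKM.

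The plastidic glucose transporters made up 22 Unigenes, with 17 tested and log2FCs from -0.46 to 0.72. Glucose transporter 4, which carries the name of the main plastid glucose exporter, was highest by FPKM in CL1294.Contig2_All, which stood at 45.9, 49.4 and 66.2 CPM in the Trunking and 38.0, 46.4 and 41.9 CPM in the Non-trunking palms. The log2FC was -0.35 (SE 0.22), and the groups overlapped. The highest contigs of transporters 1, 2 and 3 had log2FCs of -0.073 (CL7155.Contig2_All, SE 0.43), 0.25 (CL4820.Contig8_All, SE 0.21) and 0.72 (CL4820.Contig3_All, SE 0.65). The value of transporter 3 rested on SN8 at 5.02 CPM, and without that library it was -0.17. Nr names this contig transporter 2, and it lies in the cluster of the transporter 2 contig, so which form it is remains uncertain.

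Further genes of starch and sugar metabolism were read from a list of 80 Unigenes with the same palm matches. It held isoamylases, starch-targeting proteins (PTST), hexokinases, phosphate translocators and phosphoglucomutases. Not all of the translocators and phosphoglucomutases carry a plastid name. Of the 70 tested, 3 had an unadjusted p under 0.05 with a higher and 1 with a lower level in Non-trunking leaves, no larger shares than the 5.43% and 4.43% of all tested Unigenes, and 0 passed an adjusted p of 0.05 with edgeR quasi-likelihood. Their median log2FC was 0.0022. The isoamylases, which debranch glucans beside pullulanase, were 8 tested Unigenes with a median of -0.22, and none had an unadjusted p under 0.05. Plastid phosphoglucomutase (CL3445.Contig1_All), which interconverts glucose 6-phosphate and glucose 1-phosphate, had a log2FC of -0.56 (unadjusted p 0.0434). Those that were higher were glucose 6-phosphate translocator 2 (CL3301.Contig1_All, 0.94, unadjusted p 0.0343), PTST (CL2585.Contig5_All, 0.69, unadjusted p 0.0437) and a probable sugar phosphate translocator (Unigene9760_All, 0.81, unadjusted p 0.0442). The most abundant of the list, the triose phosphate translocator contig CL3015.Contig2_All, had a log2FC of 0.20.

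Starch breakdown follows the daily rhythm of the leaf, so clock genes of the same libraries were set beside it. Of 44 tested Unigenes of dawn clock proteins, 13 had an unadjusted p under 0.05 with a higher and 0 with a lower level in Non-trunking leaves, beside 5.43% higher and 4.43% lower of all tested Unigenes, and the median log2FC was 0.86. Of 50 tested Unigenes of proteins that peak later in the day, 3 were higher and 16 lower at that p, read against the same 5.43% and 4.43%, with a median of -0.34. With edgeR quasi-likelihood no Unigene of either list passed an adjusted p of 0.05. Of the 13 higher dawn Unigenes, 7 were contigs of a single cluster named LHY (CL1173), and reads may have been divided between them. Of the 16 lower Unigenes of the later list, 8 carried the name GIGANTEA. LHY, a transcription factor of the morning, stood at 1323, 566 and 544 summed CPM in ST1, ST4 and ST5, and at 2136, 1952 and 1788 summed CPM in SN7, SN8 and SN9. GIGANTEA, a protein of the evening, stood at 1138, 1067 and 1431 summed CPM in the Trunking and 499.6, 609.5 and 609.7 summed CPM in the Non-trunking palms. Neither overlapped between groups, and both proteins were singled out after their values were seen. Not every Unigene of these lists followed their direction. In the later list a contig of the response regulator PRR1 (CL5586.Contig10_All) had a log2FC of 1.13 (SE 0.24). In the dawn list the LNK2 contig CL896.Contig4_All had -0.44 (SE 0.28). These contigs were also named after their values were seen.

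The part of the clock, or of the hour of sampling, in the levels of the starch breakdown Unigenes was not tested. Among the cell type markers, mesophyll Unigenes had a median log2FC of 0.41, with 3 of 39 higher and 0 lower at an unadjusted p under 0.05, against 5.43% and 4.43% of all tested Unigenes. Guard cell markers had a median of 0.22 (1 of 14 higher), at 93.1 to 96.7 summed FPKM in the Trunking and 76.1 to 141 in the Non-trunking palms. Phloem, fibre and dividing cell markers had medians of 0.12, -0.086 and 0.098, with none past that p. The part of cell makeup in the results was not tested.

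**Figure D5:**
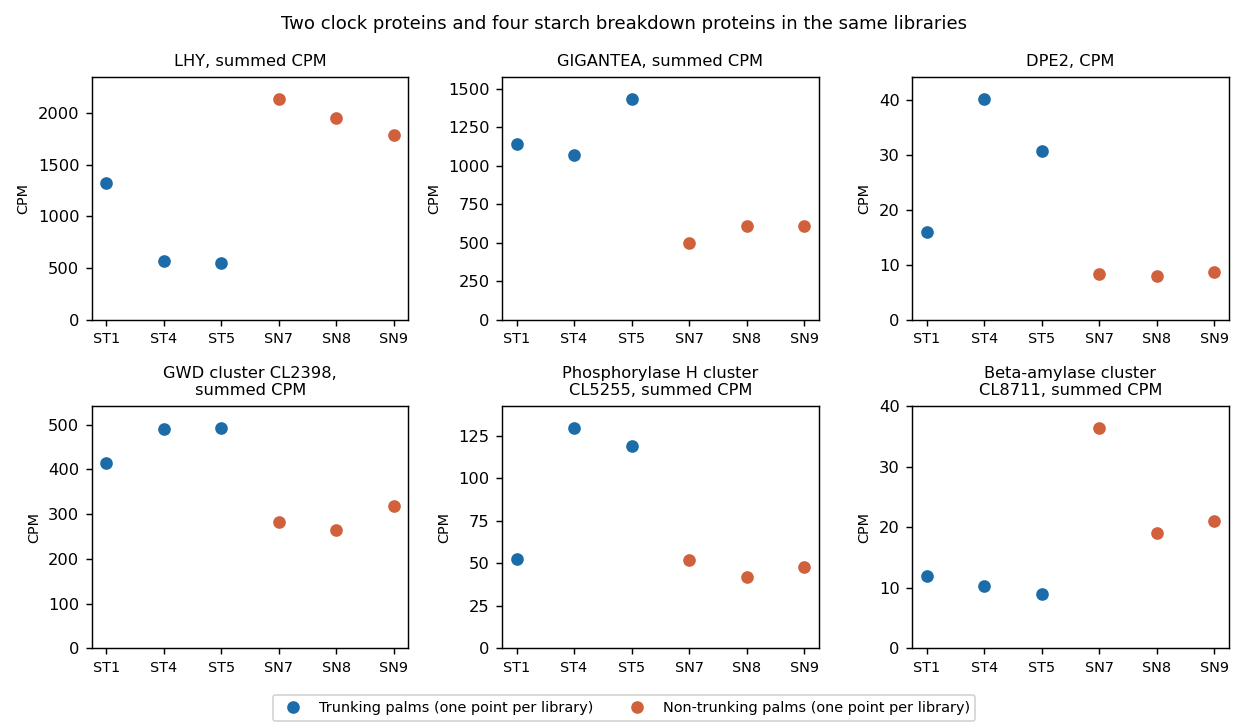
CPM in each library of the clock proteins LHY and GIGANTEA and of DPE2, the GWD cluster CL2398, the phosphorylase H cluster CL5255 and the beta-amylase cluster CL8711, with blue points for Trunking and orange points for Non-trunking palms. LHY and the beta-amylase cluster are higher, and GIGANTEA, DPE2, GWD and phosphorylase H lower, in all 3 Non-trunking palms than in any Trunking palm, with ST1 at 52.5 and SN7 at 52.3 CPM for phosphorylase H. All panels show proteins picked after their values were seen, so their likeness is no separate result. The DPE1 cluster CL7917, higher without overlap, and clusters that overlapped, such as CL2078 and CL4870, are not drawn.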

How the data were processed

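Each library holds mRNA-enriched leaf RNA of 1 palm (CTAB preparation, BGISEQ-500 reads). The authors assembled the clean reads with Trinity, clustered contigs with TGICL, mapped reads with Bowtie2 and computed expression with RSEM, with versions not given in the sources used here. The deposited values were expected counts, which are estimated counts without normalization, and FPKM, scaled by length and library total. Unigenes were listed only from an FPKM of 0.01, and one not listed was set to 0. A read split between similar contigs can shift counts among them. No genome was used, so chromosome positions are not given.

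After rounding, the expected counts went through edgeR 4.0.16 under R 4.3.3, with filterByExpr, TMM, glmQLFit, glmQLFTest and a threshold of 0.05. CPM are TMM-scaled. The standard error is the log2 fold change divided by the square root of F. DESeq2 1.42.0, the likelihood ratio test, limma 3.58.1 on log2(FPKM + 1) and log2(FPKM + 0.1), where 3 libraries reached an FPKM of 1, library size alone, DESeq2's size factors, no filter, counts summed per cluster, members of any Nr species, and each library left out were alternatives. Non-overlap on FPKM was added after the data were seen. Tables were handled in pandas 2.3.3, NumPy 2.4.6 and Python 3.11.15, and plots in Matplotlib 3.10.9. The replicates are separate palms. The biological coefficient of variation was 0.497, so at this depth the spread between palms, and not counting error, limits the precision of abundant Unigenes.

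Tested on simulated data for Non-trunking minus Trunking (45928 Unigenes, 200 changed 4-fold), the quasi-likelihood test recovered 198 with 10 false calls at a dispersion of 0.05. At the estimated dispersions it recovered 0, DESeq2 107 with 181 false calls, and the likelihood ratio test 94 with 113 false calls.

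The Unigenes described, the lists and the tests were chosen with earlier results of these data known. Named were the Unigene of highest mean FPKM under each protein name, if tested, and every one with an unadjusted p under 0.05. Up to 5 from the list of further genes were named as well.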

Additional observations from a re-analysis of the deposited data

How the results depend on the processing

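The count of starch breakdown Unigenes with an unadjusted p under 0.05 lay between 8 and 13 when libraries were left out in turn, those higher in Non-trunking palms between 2 and 7, those lower between 5 and 6, and the median log2 fold change between -0.11 and 0.068. The median was 0.12 without the filter and 0.10 with DESeq2, each over all 112 Unigenes. DESeq2 gave 8 higher Unigenes and 5 with an adjusted p under 0.05, 4 of them among the 89, and the likelihood ratio test gave 1. Summing counts per cluster left 45 tested clusters and single Unigenes, with 7 at an unadjusted p under 0.05 (15.6%, beside 11% of all clusters), 4 higher and 3 lower. Of the 461 alternative values for 31 named Unigenes, 14 changed sign, in 9 Unigenes. With counts summed per cluster, CL2078.Contig2_All came to -0.063, CL2185.Contig2_All to -0.083, CL895.Contig4_All to 0.11 and CL7155.Contig2_All to 0.080, since each then carries the other contigs of its cluster. CL7155.Contig2_All was also 0.0056 with limma on log2(FPKM + 0.1). Leaving out libraries in turn moved CL7155.Contig2_All from -0.43 to 0.17 (0.11 without ST5), Unigene16496_All from -0.28 to 0.16 (0.12 without SN9), Unigene7143_All from -0.23 to 0.27 (0.072 without SN9), CL3750.Contig9_All from -0.35 to 0.037, CL4820.Contig3_All from -0.17 to 1.14 and CL5571.Contig2_All from -0.0068 to 0.54. The cause was not tested. No paired analysis was possible because the groups share no replicate numbers. The smallest p of an exact permutation test of 3 against 3 palms is 0.1.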
